A study of Mus musculus with 33 samples.

Results

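Cadherins are cell surface proteins that bind the same kind of molecule on a neighbouring cell in the presence of calcium, and so decide which cells stick to each other. In classical cadherins the part inside the cell holds p120 catenin and beta-catenin, and beta-catenin passes the link on through alpha-catenin to actin. Epithelia and pluripotent mouse cells carry E-cadherin, fibroblasts and other mesenchymal cells carry N-cadherin and cadherin 11, and a change from the mesenchymal to the epithelial set is a textbook step in the making of induced pluripotent stem (iPS) cells from fibroblasts. The 8 genes described here were chosen by name: Cdh1 (E-cadherin), Cdh2 (N-cadherin), Cdh3 (P-cadherin), Cdh4 (R-cadherin), Cdh5 (VE-cadherin), Cdh6 (K-cadherin), Cdh11 (cadherin 11) and Cdh13 (T-cadherin). Each matched 1 of the 37583 gene IDs in the count tables, and all 8 passed the filter on low counts. They were proposed as classical cadherins, a label that fits the protein of Cdh13 poorly, because T-cadherin is held in the membrane by a lipid anchor and has no part inside the cell to bind catenins.

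Poly-A RNA was sequenced from 33 mouse libraries of the strain 129SV/Jae/C57BL6J, with 3 libraries in each of 11 groups. Mouse embryonic fibroblasts (MEFs) were kept in MEF media, and cells of days 3, 6, 9 and 12 and of the iPS stage came from reprogramming in ES media with dox and AA, as the labels write them. All cells were released with trypsin, stained with antibodies and sorted by flow cytometry, and each stage after MEFs was split into a fraction without (SSEA1neg) and a fraction with (SSEA1pos) the surface carbohydrate SSEA1. The labels do not say which factors dox switched on, from which promoter, or at what passage or embryonic age the fibroblasts were taken. Nothing in them ties a replicate to a culture or an animal of its own, and the p-values thus hold for the spread among these samples, which may be technical. MEFs and reprogramming cells differed in medium as well as in stage, and the effects of medium and stage cannot be told apart. These are bulk samples, in which fewer cells of a type and less RNA per cell cannot be told apart either.

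Libraries held 8.93 to 41.69 M reads in genes (median 23.15 M), and 3 reads, the limit that a count of 0 allows, correspond to 0.0720 to 0.336 CPM (reads per 1 M reads in genes). Marker lists went with the labels, in that summed levels of 8 fibroblast genes were 75250 to 82980 CPM in MEFs, 2148 to 14070 in SSEA1neg and 42.9 to 1401 in SSEA1pos libraries, and 8 pluripotency genes summed to 4041 to 5953 CPM in iPS-stage SSEA1pos libraries and at most 3.66 in MEFs. Some libraries stood apart within their group. Replicate 3 of the iPS-stage SSEA1neg cells had a pluripotency sum of 2345 CPM against 179.6 and 438 in replicates 1 and 2. Replicate 2 of the SSEA1neg cells had a macrophage sum of 206 to 742 CPM at day 6 and later, with at most 38.1 in replicates 1 and 3. MEF replicate 2, a control in every comparison with MEFs, had a macrophage sum of 137 CPM against 4.71 and 22.7 in MEF replicates 1 and 3. Replicate 1 of the day 12 SSEA1pos cells had a basal epithelial sum of 90.6 CPM against 418 and 559. In what follows, levels are CPM after scaling of the library totals, and levels of different genes are compared per kilobase of exon (CPM per kb). Changes are log2 fold changes ± standard error from edgeR's quasi-likelihood test. Rose and fell are used for changes of 2-fold or more with an adjusted p, over all 17326 tested genes, below 0.05. The median change of all tested genes against MEFs lay at 0.07 to 0.26 with this scaling. On the same genes it was -0.03 to 0.18 with RLE factors and 0 to 0.35 with upper quartile factors. Without the filter on low counts it was 0 to 0.25 with this scaling and 0 or 0.10 with DESeq2. These shifts were smaller than the called changes of the 8 genes.

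MEFs carried mostly Cdh11, with Cdh3 and Cdh2, and almost no Cdh1. SSEA1pos cells of day 12 and of the iPS stage carried mostly Cdh1, and SSEA1neg cells from day 6 on carried Cdh11, Cdh1 and Cdh13 side by side. The change was not a direct exchange: Cdh11 and Cdh3 had fallen by day 3 in both fractions, before Cdh1 had reached its later level, and Cdh2 was then the most abundant of the 8 genes per kilobase in all 3 SSEA1pos libraries and in 1 of 3 SSEA1neg libraries. Cdh3 came back late, and Cdh13 and Cdh5 were highest between MEFs and the last stage.

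**Figure D1:**
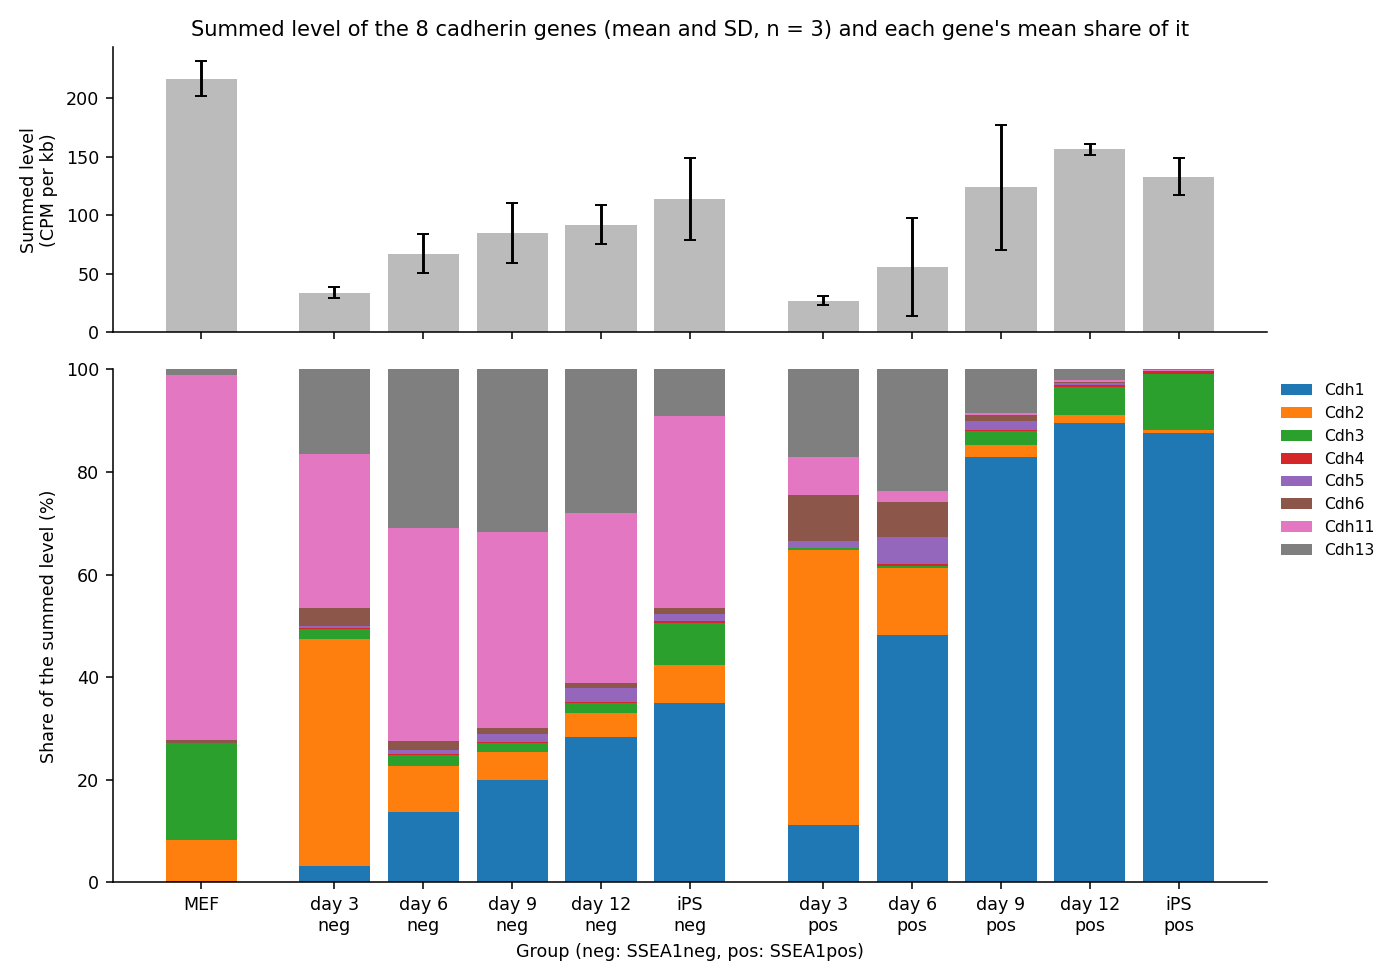
Upper panel: summed level of the 8 genes in CPM per kb by group (bars, mean of 3 libraries; error bars, SD). Lower panel: mean share of each gene in that sum, in %. The sum was 217 CPM per kb in MEFs and 27.0 in day 3 SSEA1pos cells, and the leading gene went from Cdh11 in MEFs (71.2%) to Cdh2 in day 3 SSEA1pos cells (53.6%) and to Cdh1 in day 12 SSEA1pos cells (89.6%).

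Added up per kilobase, the 8 genes reached 217 ± 15.1 CPM per kb (SD, n = 3) in MEFs, of which Cdh11 made up 71.2%, Cdh3 18.8% and Cdh2 8.10%. At day 3 the sum was lower by far, at 27.0 ± 3.62 CPM per kb in SSEA1pos and 33.8 ± 4.71 in SSEA1neg cells. The libraries of MEFs (200.2 to 230.2 CPM per kb) did not overlap with those of either day 3 fraction (23.01 to 30.1 and 28.8 to 38.1). Cdh2 made up 53.6% of the sum in day 3 SSEA1pos cells (47.2 to 64.2%), although its own level overlapped with that of MEFs. In day 3 SSEA1neg cells the order of Cdh2 and Cdh11 differed between libraries. Cdh2 made up 65.1, 33.8 and 34.3% of the sum in replicates 1, 2 and 3 and Cdh11 12.9, 40.1 and 36.8%, so that Cdh2 led in replicate 1 and Cdh11 in replicates 2 and 3. Cdh11 and Cdh3 differed between the fractions already at day 3, as given below. From day 6 on, Cdh1 had the largest mean share in SSEA1pos but not in SSEA1neg cells. Single SSEA1neg libraries differed in this. Cdh1 led in day 12 replicate 1 (34.0%, with Cdh13 at 29.2%) and in iPS-stage replicates 1 and 3 (33.4 and 39.5%, with Cdh11 at 30.2 and 34.3%). In iPS-stage replicate 2, the library with the macrophage sum of 742, Cdh11 led (48.3%, with Cdh1 at 31.7%). In SSEA1pos cells the sum was 56.0, 124, 156 and 133 CPM per kb at day 6, day 9, day 12 and the iPS stage, and the share of Cdh1 was 48.3, 83.0, 89.6 and 87.7%. The day 6 SSEA1pos libraries were uneven, with sums of 104, 31.6 and 31.8 CPM per kb and Cdh1 shares of 74.1, 38.7 and 32.1%. Their sums overlapped with those of day 6 SSEA1neg libraries (86.0, 60.6 and 54.5). In SSEA1neg cells the sum was 67.0, 84.9, 92.1 and 114 CPM per kb, and Cdh1 made up 13.7, 19.9, 28.3 and 34.9%. The remainder in SSEA1neg cells was mostly Cdh11, with 33.2 to 41.5% from day 6 on, and Cdh13, with 28.0 to 31.6% at days 6 to 12 and 8.99% at the iPS stage.

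**Figure D2:**
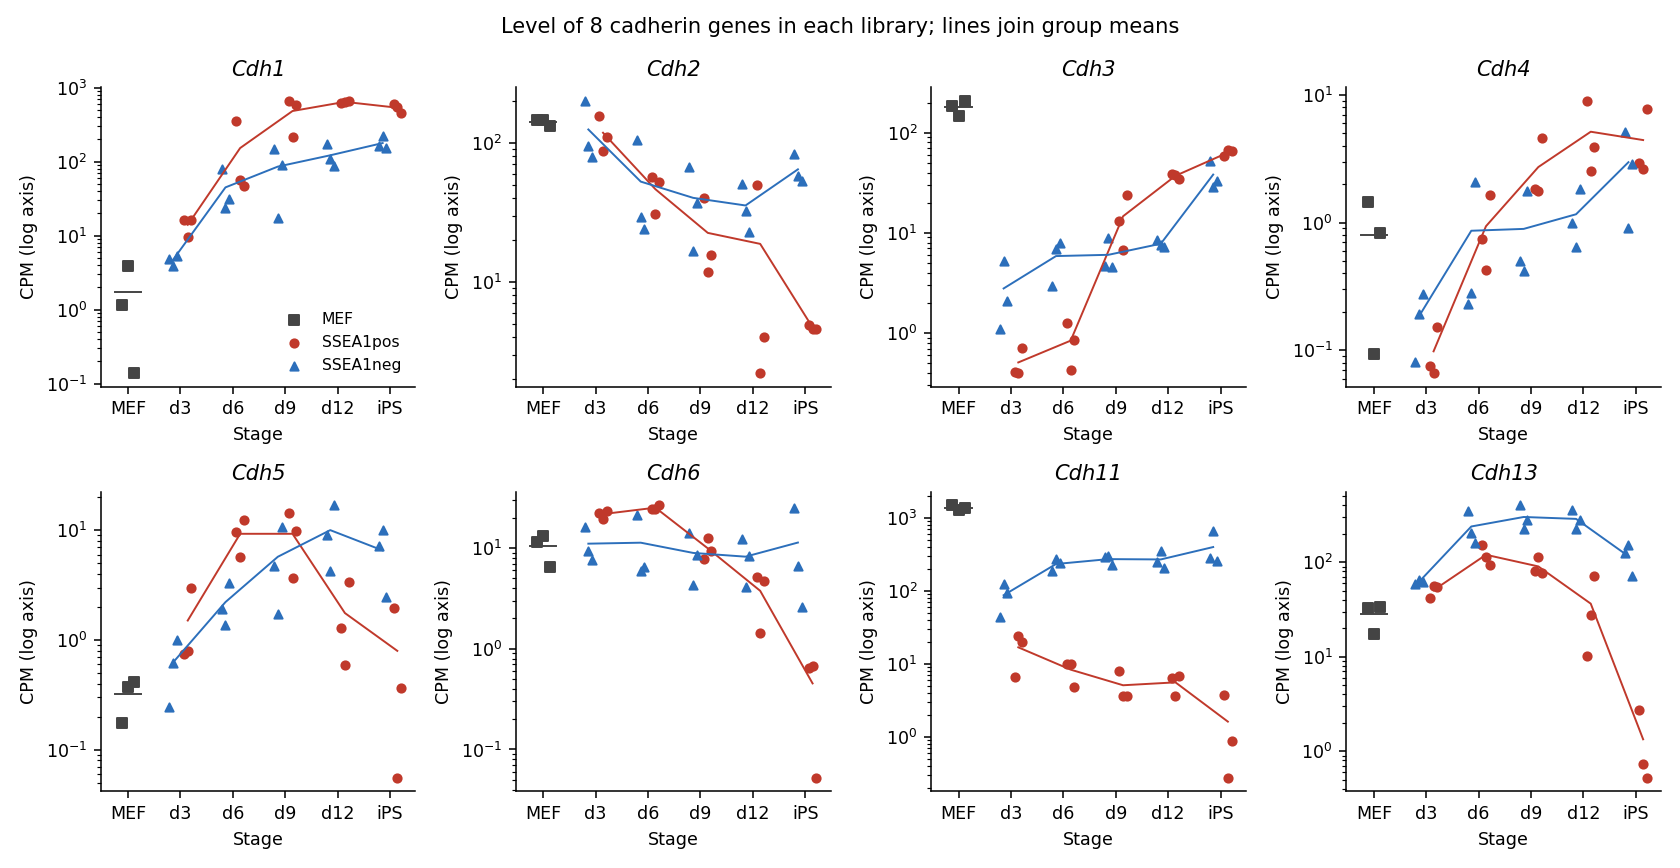
Level of each of the 8 genes in every library, in CPM on a log axis, by stage (grey squares, MEF; red circles, SSEA1pos; blue triangles, SSEA1neg; lines join group means of 3 libraries). Cdh1 climbs from 1.74 CPM in MEFs to 639.9 in day 12 SSEA1pos cells, Cdh11 drops from 1372 to 1.63 CPM in iPS-stage SSEA1pos cells, and Cdh3 drops and returns.

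Cdh1 encodes E-cadherin, the adhesion molecule of epithelia and of the early embryo. MEF replicates 1, 2 and 3 had 1.16, 3.90 and 0.139 CPM, which rest on 20, 42 and 1 reads. SSEA1pos cells had 16.1, 9.55 and 16.3 CPM at day 3 and 354, 55.9 and 46.8 at day 6. They had 652, 214 and 579 CPM at day 9, 616, 643 and 659.9 at day 12 and 598, 552 and 451 at the iPS stage. Every SSEA1pos library was above every MEF library, the day 6 and day 9 replicates were spread over several fold, and the day 12 replicates lay close together. Against MEFs, Cdh1 rose by 2.96 ± 0.80 at day 3 (adjusted p = 0.00365), 6.40 ± 0.88 at day 6 (adjusted p = 1.86e-06), 8.06 ± 0.94 at day 9 (adjusted p = 1.14e-07), 8.47 ± 0.95 at day 12 (adjusted p = 4.59e-08) and 8.21 ± 0.94 at the iPS stage (adjusted p = 4.57e-08). These sizes lean on the few MEF reads: at day 12 the value was 9.61 without MEF replicate 2 and 7.99 without MEF replicate 3.

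SSEA1neg cells gained Cdh1 as well, to a lower level. Their libraries had 4.90, 3.88 and 5.38 CPM at day 3, 79.9, 23.6 and 31.0 at day 6 and 149.9, 17.5 and 89.2 at day 9. At day 12 they had 170.1, 107 and 87.0 CPM and at the iPS stage 162, 221 and 150.5. At day 3 they overlapped with MEFs, and from day 6 on every one was above all MEF libraries. The change against MEFs was 1.40 ± 0.80 at day 3, which did not pass the test (adjusted p = 0.161; adjusted p = 0.0497 without MEF replicate 2), and Cdh1 rose by 4.64 ± 0.83 at day 6 and by 6.63 ± 0.89 at the iPS stage (adjusted p = 4.57e-06).

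The step from day 3 to day 6 was the only step between neighbouring stages at which Cdh1 changed past the threshold, by 3.44 ± 0.74 in SSEA1pos (adjusted p = 0.0065) and 3.24 ± 0.74 in SSEA1neg cells (adjusted p = 0.00962). The first call was lost without day 6 SSEA1pos replicate 1 (1.94, adjusted p = 0.0677), and the second without day 3 SSEA1neg replicate 1 (3.32, adjusted p = 0.0635). Between the fractions of one stage, Cdh1 was higher in SSEA1pos cells by 2.49 ± 0.70 at day 9 (adjusted p = 0.00671) and 2.40 ± 0.70 at day 12 (adjusted p = 0.00599). The differences of 1.57 ± 0.70 at day 3 (adjusted p = 0.147), 1.77 ± 0.68 at day 6 (adjusted p = 0.0561) and 1.59 ± 0.68 at the iPS stage (adjusted p = 0.0519) missed the threshold. At day 6, where equal replicate numbers paired the libraries, a replicate block gave 1.62 (adjusted p = 0.0438). The block was a shared term for the replicate number over all 33 libraries, and thus no paired test of that day's libraries alone. A test of whether the sort difference of Cdh1 itself changed from day 3 to day 12 gave 0.83 ± 0.96 (adjusted p = 0.604). In the order of mean levels, the 3 highest groups were the SSEA1pos cells of day 12, the iPS stage and day 9, the day 12 libraries lay above all iPS-stage libraries, and the day 9 libraries overlapped with those of the iPS stage.

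Cdh2 encodes N-cadherin, which joins mesenchymal, neural and muscle cells. MEFs had 145, 145 and 133 CPM, and day 3 SSEA1pos cells 156, 87.6 and 111. Later SSEA1pos libraries had 56.5, 30.8 and 51.9 CPM at day 6, 40.1, 11.9 and 15.6 at day 9 and 50.1, 2.21 and 4.01 at day 12. At the iPS stage they had 4.89, 4.62 and 4.62 CPM. Day 3 overlapped with MEFs, all later SSEA1pos libraries were below every MEF library, and replicate 1 of day 12 was more than 10 times as high as replicates 2 and 3. Against MEFs the day 3 change was -0.25 ± 0.72 (adjusted p = 0.812) and the day 6 change -1.60 ± 0.74 (adjusted p = 0.0752; -1.69, adjusted p = 0.0103, with a replicate block). Cdh2 fell at the later stages, with changes of -2.65 ± 0.77 at day 9 (adjusted p = 0.00525), -2.90 ± 0.77 at day 12 (adjusted p = 0.00227) and -4.90 ± 0.86 at the iPS stage (adjusted p = 2.23e-05).

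SSEA1neg libraries had 200.1, 94.1 and 79.7 CPM at day 3, 104, 29.3 and 24.1 at day 6 and 67.3, 16.6 and 36.8 at day 9. They had 50.9, 32.5 and 22.8 CPM at day 12 and 82.4, 57.9 and 53.1 at the iPS stage. Replicate 1 was the highest of the 3 at each of these stages. Against MEFs, Cdh2 fell by 1.99 ± 0.75 at day 12 (adjusted p = 0.035), a call lost without any 1 of the 3 MEF libraries or of SSEA1neg replicates 2 and 3 (adjusted p = 0.0501 to 0.116), and the change at the iPS stage was -1.13 ± 0.73 (adjusted p = 0.223). The sort difference was -0.08 ± 0.72 at day 3 (adjusted p = 0.982), -0.18 ± 0.72 at day 6 (adjusted p = 0.889) and -0.84 ± 0.73 at day 9 (adjusted p = 0.377). The fractions differed past the threshold at the iPS stage, where Cdh2 was lower in SSEA1pos cells (-3.77 ± 0.82, adjusted p = 0.00049). At day 12 the difference was -0.91 ± 0.73 (adjusted p = 0.305). It was -3.51 (adjusted p = 0.00032) without SSEA1pos replicate 1, and -1.46 (adjusted p = 0.026) with the replicate block over all libraries.

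The log2 ratio of Cdh1 to Cdh2 was taken within each library, with 0.1 CPM added to each gene, which pulls the ratio toward 0 where Cdh1 is near the floor, as in MEF replicate 3. Its group mean was -7.05 ± 1.98 (SD, n = 3) in MEFs. In SSEA1pos cells it was -3.07 ± 0.27 at day 3, 1.12 ± 1.42 at day 6, 4.46 ± 0.65 at day 9, 6.36 ± 2.40 at day 12 and 6.79 ± 0.18 at the iPS stage. In SSEA1neg cells it was -4.59 ± 0.73, -0.11 ± 0.41, 0.84 ± 0.66, 1.79 ± 0.11 and 1.47 ± 0.48 at the same stages. The ratio was thus higher in every group than in MEFs and higher in SSEA1pos than in SSEA1neg cells at each stage, by 5.32 at the iPS stage. In 13 of 15 comparisons the libraries did not overlap and a two-sided exact permutation test gave p = 0.1, the smallest that 3 against 3 libraries allow (0.115 after adjustment over the 15). The exceptions, day 3 SSEA1neg cells against MEFs and the fractions of day 6, overlapped (exact p = 0.2, 0.2 adjusted).

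**Figure D3:**
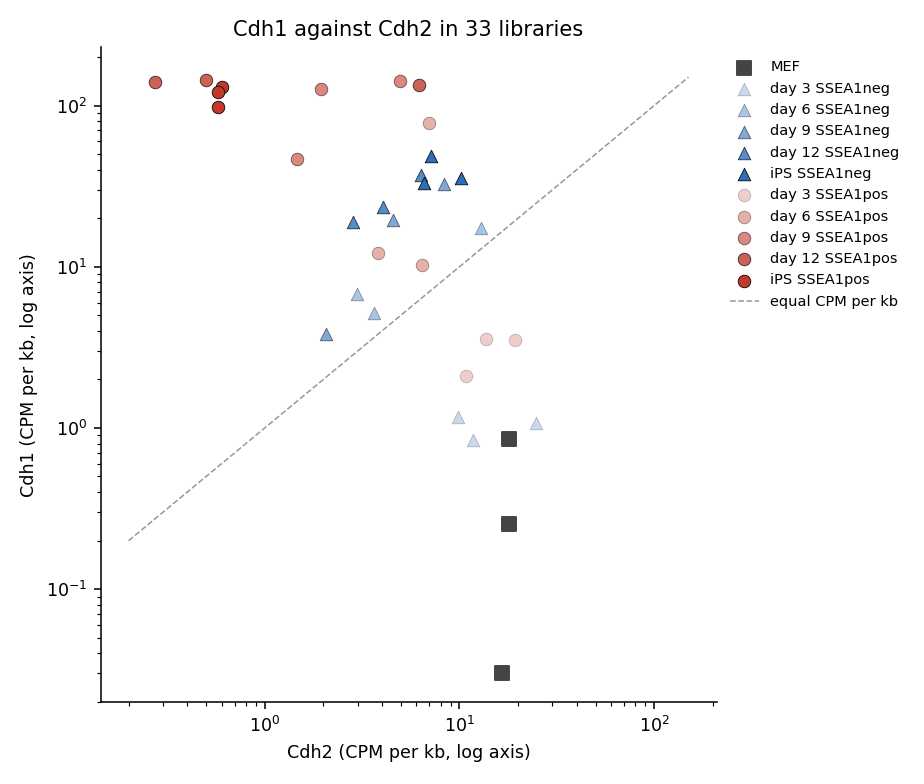
Cdh1 against Cdh2 in each of the 33 libraries, in CPM per kb on log axes (squares, MEF; triangles, SSEA1neg; circles, SSEA1pos; darker symbols are later stages; dashed line, equal levels). All 9 libraries of MEFs and day 3 lie below the line and all 24 later libraries above it, with the day 12 and iPS-stage SSEA1pos libraries along the top.

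Per kilobase, Cdh1 was below Cdh2 in all 9 libraries of MEFs and day 3 (ratio 0.00185 to 0.259) and above it in all 24 libraries of day 6 and later (ratio 1.35 to 513), in both fractions. SSEA1neg libraries of day 9 and later held both genes at 16.6 CPM or more, as the plot of the 2 genes against each other shows, while iPS-stage SSEA1pos libraries had per-kilobase ratios of 172 to 216.

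Cdh11 encodes a cadherin of mesenchyme and bone-forming cells, and was the most abundant of the 8 genes per kilobase in MEFs, at 154 ± 10.5 CPM per kb. The MEF libraries had 1475, 1292 and 1348 CPM. SSEA1pos cells had 6.69, 23.8 and 20.3 CPM at day 3, 10.1, 10.1 and 4.91 at day 6 and 8.08, 3.60 and 3.68 at day 9. They had 6.37, 3.66 and 6.81 CPM at day 12 and 3.72, 0.279 and 0.892 at the iPS stage. No SSEA1pos library came near MEFs, and most of the drop was in place at day 3. Against MEFs Cdh11 fell at all 5 stages, from -6.35 ± 0.65 at day 3 (adjusted p = 2.85e-08) to -9.71 ± 0.76 at the iPS stage (adjusted p = 9.09e-11). From day 12 to the iPS stage it fell by 1.78 ± 0.59 (adjusted p = 0.0461), a call lost without either of day 12 SSEA1pos replicates 1 and 3 or iPS-stage SSEA1pos replicates 2 and 3 (adjusted p = 0.0888 to 0.185).

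SSEA1neg cells had 44.0, 123 and 94.4 CPM of Cdh11 at day 3, 184, 277 and 239 at day 6 and 289.9, 299 and 227 at day 9. At day 12 they had 252, 351 and 206 CPM and at the iPS stage 285, 656 and 254. All were below MEFs, the day 3 libraries were lower than all later SSEA1neg libraries, and the step from day 3 to day 6 was 1.42 ± 0.52 (adjusted p = 0.0823). Cdh11 fell against MEFs at all 5 stages, with changes between -3.97 ± 0.58 at day 3 (adjusted p = 6.91e-06) and -1.78 ± 0.53 at the iPS stage (adjusted p = 0.0097; -2.35, adjusted p = 0.00406, without replicate 2, the library with 656 CPM and the macrophage sum of 742). It was lower in SSEA1pos than in SSEA1neg cells at all 5 stages, with differences of -2.37 ± 0.54 at day 3 (adjusted p = 0.00622), -4.80 ± 0.61 at day 6, -5.73 ± 0.63 at day 9, -5.58 ± 0.63 at day 12 and -7.92 ± 0.71 at the iPS stage (adjusted p = 3.06e-09). The sort difference widened from day 3 to day 12 by -3.21 ± 0.76 (adjusted p = 0.00558). Summed fibroblast markers moved with Cdh11 across the groups, at 2148 to 14070 CPM in SSEA1neg and 42.9 to 1401 CPM in SSEA1pos cells, with all 8 markers read in each group, and their part in this result was not tested.

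Cdh3 encodes P-cadherin, an epithelial cadherin named for the placenta and found in basal layers of epithelia. In MEFs it stood at 183, 146 and 208 CPM. SSEA1pos libraries had 0.411, 0.398 and 0.716 CPM at day 3, 1.25, 0.427 and 0.845 at day 6 and 13.2, 6.80 and 23.98 at day 9. They had 38.9, 37.8 and 34.8 CPM at day 12 and 58.3, 66.5 and 65.2 at the iPS stage. The level dropped to under 1 CPM at day 3 and came back from day 9 on, to a level below that of all MEF libraries. Against MEFs Cdh3 fell at all 5 stages, with changes of -8.45 ± 0.61 at day 3 (adjusted p = 2.02e-10), -7.72 ± 0.59 at day 6, -3.61 ± 0.47 at day 9, -2.27 ± 0.44 at day 12 and -1.498 ± 0.43 at the iPS stage (adjusted p = 0.00378). Within SSEA1pos cells it rose by 4.11 ± 0.52 from day 6 to day 9 (adjusted p = 0.000134) and by 1.34 ± 0.43 from day 9 to day 12 (adjusted p = 0.0428). The second of these calls was lost without any 1 of 5 of its 6 libraries (adjusted p = 0.0544 to 0.214), all but day 9 replicate 3.

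In SSEA1neg cells Cdh3 fell less and came back later. Its levels were 1.09, 5.20 and 2.07 CPM at day 3, 2.94, 6.83 and 7.84 at day 6 and 4.68, 8.88 and 4.55 at day 9. They were 8.57, 7.55 and 7.27 CPM at day 12 and 52.8, 28.7 and 33.2 at the iPS stage. Against MEFs it fell at all 5 stages, from -6.01 ± 0.53 at day 3 to -2.23 ± 0.44 at the iPS stage (adjusted p = 0.000362), and from day 12 to the iPS stage it rose by 2.29 ± 0.45 (adjusted p = 0.00201). The sort difference turned around. Cdh3 was lower in SSEA1pos than in SSEA1neg cells at day 3 (-2.44 ± 0.54, adjusted p = 0.00514; -1.65, adjusted p = 0.0554, without SSEA1neg replicate 2) and day 6 (-2.79 ± 0.51, adjusted p = 0.000305). It was higher in SSEA1pos cells at day 9 (1.27 ± 0.44, adjusted p = 0.0243; 0.69, adjusted p = 0.256, without SSEA1pos replicate 3) and day 12 (2.25 ± 0.45, adjusted p = 0.000199), and the iPS-stage difference was 0.73 ± 0.43 (adjusted p = 0.151). The day 9 call was also lost without SSEA1neg replicate 1 or 3 (adjusted p = 0.0987 and 0.0945). The change of the sort difference from day 3 to day 12 was 4.69 ± 0.70 (adjusted p = 0.000207). Basal epithelial markers summed to 500.3 to 628.8 CPM in day 3 SSEA1pos cells, where Cdh3 was at its lowest. They summed to 4.74 to 6.96 CPM in MEFs, where Cdh3 was highest, and to 52.7 to 91.7 CPM in iPS-stage SSEA1pos cells. In SSEA1neg cells the sum was 217 to 240.2 CPM at day 3 and 358 to 771 at day 12, between which the mean of Cdh3 went from 2.79 to 7.79 CPM, and in day 9 SSEA1pos cells the sum was 567 to 776 CPM beside a mean of 14.7 CPM. At days 3 to 12 the sums given here were mostly Itgb4, with means of 546 and 226 CPM in SSEA1pos and SSEA1neg cells at day 3. Its means were 580 CPM in day 12 SSEA1neg and 611 CPM in day 9 SSEA1pos cells. Trp63 and the keratin genes of the list had means of at most 0.892 CPM at day 3. The sum, which speaks mainly for Itgb4, had no single relation to the level of Cdh3 across the groups. The part of basal epithelial cells in that level was not tested.

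Cdh1 and Cdh3 are next to each other among the protein-coding genes of chromosome 8 in the RefSeq annotation of GRCm38.p6, and so are Cdh11 and Cdh5. Over all 33 libraries, MEFs included, the neighbours did not share a profile. Log2 CPM of Cdh1 and Cdh3 correlated at r = 0.10, and that of Cdh11 and Cdh5 at r = 0.07. MEFs had the lowest mean of Cdh1 (1.74 CPM) and the highest of Cdh3 (179 CPM). From day 3 to day 12 the means of both genes climbed in each fraction. In SSEA1pos cells Cdh1 went from 14.0 to 640 CPM and Cdh3 from 0.508 to 37.2 CPM. In SSEA1neg cells Cdh1 went from 4.72 to 121 CPM and Cdh3 from 2.79 to 7.79 CPM. Against the same MEF libraries, day 3 SSEA1pos cells had a change of 2.96 in Cdh1 and of -8.45 in Cdh3.

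Cdh13 encodes T-cadherin, which is known from vessels and heart as a receptor for adiponectin. MEFs had 33.1, 17.6 and 33.4 CPM. SSEA1neg cells had 58.4, 64.8 and 62.2 CPM at day 3, 352, 204 and 161 at day 6 and 399, 222 and 283 at day 9. They had 358, 223 and 282 CPM at day 12 and 125, 151 and 71.7 at the iPS stage. All SSEA1neg libraries were above all MEF libraries, and those of days 6 to 12 were the highest of the series. Cdh13 rose in SSEA1neg cells against MEFs by 3.09 ± 0.52 at day 6 (adjusted p = 4.13e-05), 3.43 ± 0.52 at day 9, 3.36 ± 0.52 at day 12 and 2.05 ± 0.50 at the iPS stage (adjusted p = 0.0023). The day 3 change was 1.14 ± 0.49 (adjusted p = 0.0584). From day 3 to day 6 it rose by 1.95 ± 0.49 (adjusted p = 0.0168), a call lost without day 3 SSEA1neg replicate 1 or 3 (adjusted p = 0.096 and 0.0525).

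In SSEA1pos cells Cdh13 went up and then down. It stood at 42.02, 55.6 and 54.1 CPM at day 3, 152, 114 and 93.2 at day 6 and 80.1, 114 and 76.4 at day 9. At day 12 it stood at 10.2, 27.7 and 71.4 CPM and at the iPS stage at 2.76, 0.724 and 0.524. Day 6 and day 9 lay above MEFs, the day 12 libraries were spread around the MEF level, and the iPS-stage libraries lay below it. Against MEFs Cdh13 rose by 2.10 ± 0.50 at day 6 (adjusted p = 0.00114) and 1.69 ± 0.49 at day 9 (adjusted p = 0.00554), differed by 0.38 ± 0.48 at day 12 (adjusted p = 0.506) and fell by 4.38 ± 0.59 at the iPS stage (adjusted p = 4.81e-07). The step from day 12 to the iPS stage was -4.76 ± 0.59 (adjusted p = 7.03e-06). The difference between the fractions grew with the stage, from -0.29 ± 0.48 at day 3 (adjusted p = 0.758) to -1.74 ± 0.49 at day 9 (adjusted p = 0.00662), -2.98 ± 0.51 at day 12 (adjusted p = 4.18e-05) and -6.43 ± 0.63 at the iPS stage (adjusted p = 1.1e-08). Tests of this growth gave -2.69 ± 0.68 from day 3 to day 12 (adjusted p = 0.00902) and -3.45 ± 0.73 from day 12 to the iPS stage (adjusted p = 0.0133). The second call was lost without day 12 SSEA1pos replicate 3 or iPS-stage SSEA1pos replicate 2 or 3 (adjusted p = 0.0536 to 0.0587), and with the libraries of the compared groups alone (-3.45, adjusted p = 0.203).

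Cdh6 encodes K-cadherin, known from the developing kidney and neural crest. MEFs had 11.5, 13.3 and 6.54 CPM, and SSEA1pos cells 22.2, 19.4 and 23.5 at day 3 and 24.6, 24.5 and 26.5 at day 6. Later SSEA1pos libraries had 7.75, 12.6 and 9.43 CPM at day 9, 5.17, 1.45 and 4.67 at day 12 and 0.637, 0.669 and 0.0524 at the iPS stage. The day 3 and day 6 libraries were above all MEF libraries, and those of the iPS stage were the lowest, 1 of them resting on a single read. The early difference from MEFs did not pass the test (1.05 ± 0.65, adjusted p = 0.193, at day 3 and 1.26 ± 0.65, adjusted p = 0.113, at day 6). At day 12 the change was -1.48 ± 0.66 (adjusted p = 0.0556; -1.55, adjusted p = 0.0216, with a replicate block), and at the iPS stage Cdh6 fell by 4.53 ± 0.80 (adjusted p = 2.41e-05). From day 12 to the iPS stage it fell by 3.05 ± 0.77 (adjusted p = 0.0091; -2.53, adjusted p = 0.0606, without iPS-stage SSEA1pos replicate 3). SSEA1neg libraries lay between 2.61 and 24.8 CPM, and none of their 5 changes against MEFs passed the test (adjusted p = 0.684 to 0.958). Both ends of this range are from the iPS stage, where replicates 1, 2 and 3 had 24.8, 6.59 and 2.61 CPM. At the iPS stage Cdh6 was lower in SSEA1pos than in SSEA1neg cells (-4.64 ± 0.80, adjusted p = 3.67e-05).

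Cdh5 encodes VE-cadherin of endothelial junctions, and its levels were low throughout. MEF libraries had 0.174, 0.372 and 0.417 CPM, from 3, 4 and 3 reads. SSEA1pos cells had 0.748, 0.796 and 2.97 CPM at day 3, 9.62, 5.71 and 12.5 at day 6 and 14.3, 3.64 and 9.81 at day 9. They had 1.27, 0.595 and 3.41 CPM at day 12 and 1.97, 0.0557 and 0.367 at the iPS stage. SSEA1neg cells had 0.243, 0.620 and 1.01 CPM at day 3, 1.93, 1.37 and 3.34 at day 6 and 4.74, 1.71 and 10.7 at day 9. They had 8.95, 4.29 and 16.8 CPM at day 12 and 7.14, 10.02 and 2.46 at the iPS stage. The SSEA1pos libraries were highest at days 6 and 9 and low again at day 12, while the mean of the SSEA1neg libraries was highest at day 12.

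Against MEFs Cdh5 rose in SSEA1pos cells by 4.92 ± 1.05 at day 6 (adjusted p = 0.000391) and by the same 4.92 ± 1.05 at day 9 (adjusted p = 0.000334). At day 12 it rose by 2.52 ± 1.02 (adjusted p = 0.0356), a call lost without any 1 of the 3 MEF libraries or without SSEA1pos replicate 3 (adjusted p = 0.062 to 0.201), and at the iPS stage the change was 1.39 ± 1.05 (adjusted p = 0.25). In SSEA1neg cells it rose by 2.86 ± 1.02 at day 6 (adjusted p = 0.0262; lost without any 1 MEF library or SSEA1neg replicate 3, adjusted p = 0.0584 to 0.126), 4.21 ± 1.03 at day 9, 5.03 ± 1.05 at day 12 and 4.41 ± 1.04 at the iPS stage (adjusted p = 0.00171). It was lower in SSEA1pos than in SSEA1neg cells at day 12 (-2.51 ± 0.86, adjusted p = 0.0168) and at the iPS stage (-3.02 ± 0.90, adjusted p = 0.00682). The day 12 call was lost without SSEA1neg replicate 3 or SSEA1pos replicate 1 or 2 (adjusted p = 0.0644 to 0.0831). The change of the sort difference of Cdh5 from day 3 to day 12 was -3.75 ± 1.21 (adjusted p = 0.0338), a call lost without any 1 of 6 of the 12 libraries (adjusted p = 0.0607 to 0.144): day 3 SSEA1neg replicates 1 and 2, day 3 SSEA1pos replicate 3, day 12 SSEA1neg replicate 3 and day 12 SSEA1pos replicates 1 and 2. At day 6 the sort difference was 2.06 ± 0.84 (adjusted p = 0.0684; 2.09, adjusted p = 0.0274, with a replicate block). With the same block its steps in SSEA1pos cells passed the test from day 3 to day 6 (2.74, adjusted p = 0.023, against 0.0786 without it) and from day 9 to day 12 (-2.53, adjusted p = 0.0212, against 0.0667). The 8 endothelial markers summed to 16.8 to 33.4 CPM in MEFs, 133 to 314 in SSEA1pos cells of days 6 and 9 and 154 to 213 in iPS-stage SSEA1pos cells. At day 3, with Cdh5 still low, they summed to 204 to 239 CPM in SSEA1pos and 164 to 274 in SSEA1neg cells. Later SSEA1neg sums were 155 to 244 CPM at day 6, 157 to 218 at day 9, 122 to 171 at day 12, where the mean of Cdh5 was highest, and 38.9 to 70.4 at the iPS stage. In SSEA1pos cells the sums were mostly Tek (166 to 295 CPM at day 6) and, at the iPS stage, Pecam1 (138 to 181 CPM). Emcn was at 0 in all 3 day 9 SSEA1pos libraries, and Tie1 and Emcn were at 0 in all 3 of day 3. Kdr, Cldn5, Tie1 and Esam went up and down with Cdh5 in SSEA1pos cells, and Tek, Pecam1, Erg and Emcn did not. Means at days 3, 6, 9 and 12 were 0.226, 5.88, 19.0 and 2.03 CPM for Kdr and 0.0171, 2.24, 7.99 and 2.90 for Cldn5. In SSEA1neg cells Kdr, Cldn5 and Tie1 had their highest means at day 12 (10.9, 2.13 and 1.14 CPM). The part of such cells in the level of Cdh5 was not tested.

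Cdh4 encodes R-cadherin, named for the retina, and was the least abundant of the 8 genes per kilobase in most groups. MEFs had 1.45, 0.0930 and 0.835 CPM, from 25, 1 and 6 reads. SSEA1pos cells had 0.0748, 0.0663 and 0.153 CPM at day 3, 0.747, 0.427 and 1.64 at day 6 and 1.82, 1.76 and 4.59 at day 9. They had 8.99, 2.55 and 3.92 CPM at day 12 and 2.92, 2.62 and 7.76 at the iPS stage. Day 3 SSEA1pos libraries rest on 6 reads in all against 32 in MEFs, a ratio of 0.107 with an exact 95% interval of 0.0367 to 0.26 that covers counting error only. The drop at day 3 passed the test (adjusted p = 0.0228) but not without MEF replicate 1 or day 3 SSEA1pos replicate 1 or 2 (adjusted p = 0.0622 to 0.177). Cdh4 rose against MEFs by 2.65 ± 0.88 at day 12 (adjusted p = 0.0119) and 2.43 ± 0.88 at the iPS stage (adjusted p = 0.018). Both calls were lost without MEF replicate 2 (adjusted p = 0.0655 and 0.0868). The first was also lost without day 12 SSEA1pos replicate 1 (adjusted p = 0.0712), and the second without iPS-stage SSEA1pos replicate 3 (adjusted p = 0.112). In SSEA1neg cells Cdh4 lay at 0.0811 to 5.15 CPM, and none of its 5 changes against MEFs passed the test. At day 12 it was higher in SSEA1pos than in SSEA1neg cells (2.15 ± 0.83, adjusted p = 0.0344), which was lost without SSEA1pos replicate 1 or SSEA1neg replicate 1 or 2 (adjusted p = 0.101 to 0.182), and a replicate block gave a further call at day 9 (1.75, adjusted p = 0.024, against 0.122 without it). The step from day 3 to day 6 in SSEA1pos cells was also called only with the block (adjusted p = 0.0152, against 0.0743).

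**Figure D4:**
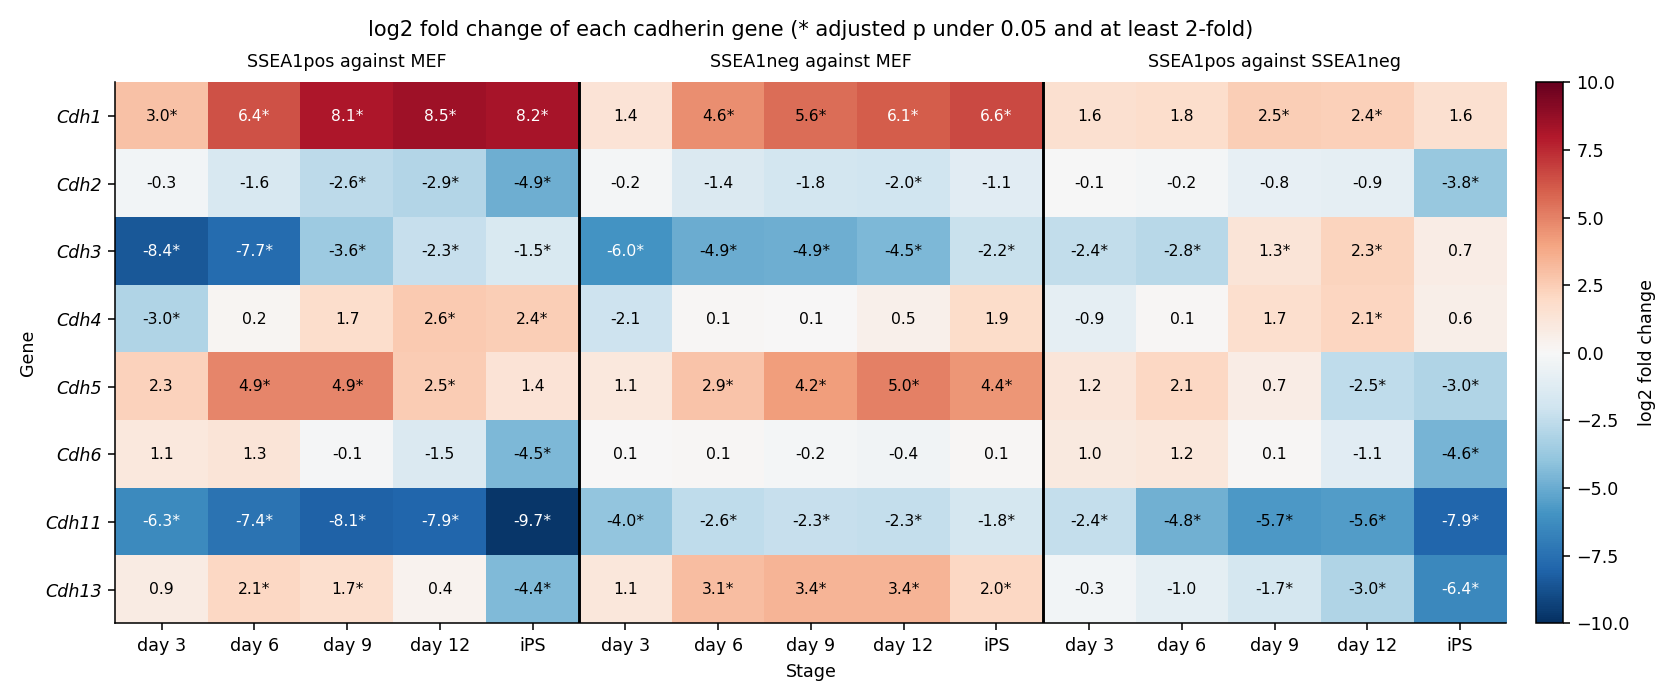
log2 fold change of each of the 8 genes (rows) against MEFs in either fraction and between the fractions at each stage (columns), coloured from blue (lower) to red (higher), with an asterisk where the change passed the test. Cdh11 and Cdh3 are lower than in MEFs in all 10 columns, Cdh1 is higher in 9 with an asterisk, and Cdh11 is lower in SSEA1pos cells at all 5 stages.

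Counts of these calls have to be read against how much of the whole transcriptome moved, because many genes passed the same test in most comparisons. In SSEA1pos cells against MEFs, 1 of the 8 cadherin genes was higher and 3 were lower at day 3 (15.6% and 16.7% of all tested genes), and 3 were higher and 2 lower at day 6 (16.9% and 16.6%). At day 9 the counts were 3 higher and 3 lower (20.6% and 18%), at day 12 again 3 and 3 (26.5% and 20.2%), and at the iPS stage 2 higher and 5 lower (27.9% and 22.5%). In SSEA1neg cells 0 were higher and 2 lower at day 3 (15.3% and 14.9%), 3 higher and 2 lower at day 6 (15.8% and 12.4%) and 3 and 2 at day 9 (14.9% and 11.6%). They were 3 and 3 at day 12 (17% and 11.1%) and 3 and 2 at the iPS stage (19.1% and 7.7%). With 8 genes, 1 gene is a large step, and shares of 3 in 8 stand above these backgrounds by 1 or 2 genes, so that the counts alone say little about the family.

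Between the fractions, SSEA1pos cells had 0 of the 8 genes higher and 2 lower at day 3, when 2.76% and 3.91% of all tested genes were, and 0 higher and 2 lower at day 6 (6.31% and 10.1%). They had 2 higher and 2 lower at day 9 (11.5% and 13.7%), 3 and 3 at day 12 (18% and 18%) and 0 and 5 at the iPS stage (16% and 21.3%). For the comparisons with 0 genes higher, an unadjusted edgeR p under 0.05 was reached by 1 gene at day 3 (Cdh1), 2 at day 6 (Cdh1 and Cdh5) and 1 at the iPS stage (Cdh1), of which DESeq2 called 0, 2 and 1, and in day 3 SSEA1neg cells against MEFs by 1 (Cdh13, 0 by DESeq2). The 5 that were lower at the iPS stage were Cdh2, Cdh5, Cdh6, Cdh11 and Cdh13. Between neighbouring SSEA1pos stages 1 gene rose and 0 fell from day 3 to day 6 (3.21% and 1.25% of all tested genes), from day 6 to day 9 (0.998% and 0.0808%) and from day 9 to day 12 (5.37% and 3.45%). From day 12 to the iPS stage 0 rose and 3 fell (3.74% and 5.75%). Between neighbouring SSEA1neg stages 2 genes rose and 0 fell from day 3 to day 6 (4.65% and 1.24%), 0 changed from day 6 to day 9 (0% and 0%) or from day 9 to day 12 (0.0693% and 0%), and 1 rose and 0 fell to the iPS stage (4.72% and 2.5%). From day 6 to day 12 in SSEA1neg cells, 0 of the 8 genes reached even an unadjusted edgeR p under 0.05 in either step, and DESeq2 called 0. Of the falls counted as 0 in the remaining steps, an unadjusted p under 0.05 was reached by 0 genes from day 3 to day 6 in either fraction, 1 in SSEA1pos cells from day 6 to day 9 (Cdh6), 3 from day 9 to day 12 (Cdh5, Cdh6 and Cdh13, of which DESeq2 called Cdh5) and 1 in SSEA1neg cells from day 12 to the iPS stage (Cdh13). The sort difference changed upward in 1 gene and downward in 3 from day 3 to day 12 (6.21% and 7.93%), and in 0 and 1 genes from day 12 to the iPS stage (0.41% and 1.44%). Counted over all 25 comparisons, 84 of 200 pairs of gene and comparison were called. This total only adds up the calls above, each of which stands beside its share of all tested genes. No pooled share was taken, and the total says nothing about the family. Comparisons with MEFs share the same 3 control libraries. Fitting the compared groups alone also ended the calls for the Cdh1 step from day 3 to day 6, the Cdh3 steps from day 6 to day 12 and the Cdh11 step to the iPS stage in SSEA1pos cells, and for the sort differences of Cdh3 at day 9 and Cdh5 at the iPS stage (adjusted p = 0.0561 to 0.171). With a replicate block, the change of the sort difference from day 3 to day 12 was called for Cdh4 (3.27, adjusted p = 0.03, against 0.124 without it) and Cdh6 (-2.19, adjusted p = 0.0453, against 0.113) as well.

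For each gene, the genes with the most similar profile are given by Pearson's r of log2 CPM over the 33 libraries, which share groups and depth, so that r is a description. Closest to Cdh1 were Hook1 (r = 0.96), St14, a membrane serine protease of epithelia (r = 0.95), and Epcam, an epithelial surface molecule (r = 0.95). Closest to Cdh11 were Col3a1, a fibrillar collagen chain (r = 0.98), Angptl2 (r = 0.98) and Ccdc80 (r = 0.97). Cdh13 ran with Ly6c1 (r = 0.96), Ly6a, the gene of the surface antigen Sca-1 (r = 0.95), and Gpm6b (r = 0.95). Cdh3 ran with Tmem30b (r = 0.93), Mgarp (r = 0.92) and Adamts14 (r = 0.91). Cdh2 had Virma (r = 0.91), Pcdh7, a protocadherin (r = 0.90), and Samd5 (r = 0.89). The genes nearest to Cdh6 were Cachd1 (r = 0.92), Mpdz (r = 0.92) and Thap2 (r = 0.91), those nearest to Cdh4 were Csrnp3 (r = 0.93), Slc8a2 (r = 0.92) and Hif3a (r = 0.91), and those near Cdh5 included Sema3b and Zcchc18 (each r = 0.84). No 2 of the 8 genes shared a nearest gene. Among the 8 genes themselves, r was highest for Cdh2 with Cdh6 (0.72) and Cdh6 with Cdh13 (0.71), and lowest for Cdh1 with Cdh2 (-0.67).

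The linkers of cadherins to the cytoskeleton, and the junction genes beside them, were read from 6 lists. Of 13 linker genes, 4 were higher and 3 lower in iPS-stage SSEA1pos cells than in MEFs (27.9% and 22.5% of all tested genes), with a median change of -0.30 beside 0.22 over all genes (-0.14 with Ctnna3, which was at 0 in all iPS-stage SSEA1pos libraries, placed at its bound). Ctnnb1 (beta-catenin) had 962 ± 139.8 CPM in MEFs and 781 ± 84.3 in iPS-stage SSEA1pos cells, and Ctnna1 (alpha-E-catenin) 624 ± 30.9 and 584 ± 73.5. Their changes of -0.30 ± 0.14 (adjusted p = 0.0645) and -0.10 ± 0.15 (adjusted p = 0.597) did not pass the test, while Cdh1 changed by 8.21 (both were picked after their values were seen, as the main catenins). Plekha7, which ties p120 catenin to microtubules at the adherens junction, rose by 4.29 ± 0.36 (adjusted p = 2.66e-10), from 7.14 ± 2.88 CPM in MEFs to 70.8 ± 16.3 in SSEA1pos cells at day 3 and 141 ± 25.1 at the iPS stage. Pkp4, a p120 relative, rose by 1.91 ± 0.17 (adjusted p = 4.54e-10), and Afdn, the nectin-binding protein afadin, by 1.82 ± 0.21 (adjusted p = 6.32e-08).

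Of 13 desmosomal genes, 8 passed the filter, of which 4 rose and 1 fell in the same comparison (27.9% and 22.5% of all tested genes). Their median change was 3.37, or 1.30 with Dsg3, which was at 0 in all MEF libraries, placed at its bound. Dsg2, a desmosomal cadherin, rose by 7.53 ± 0.47 (adjusted p = 2.75e-12), from 0.468 ± 0.154 CPM in MEFs to 0.981 ± 0.194 at day 3, 39.1 ± 17.7 at day 9 and 82.4 ± 10.4 at the iPS stage in SSEA1pos cells. Dsp (desmoplakin) rose by 5.81 ± 0.87 (adjusted p = 2.63e-06) and Pkp3 (plakophilin 3) by 5.55 ± 0.51 (adjusted p = 1.27e-09). Of 9 nectin and nectin-like genes, 3 rose and 2 fell, which is near those shares (median 0.15, beside 0.22 over all genes). Among them were Cadm1 (4.78 ± 0.49, adjusted p = 7.7e-09), Cadm4 (3.68 ± 0.51, adjusted p = 7.46e-07) and Nectin3 (-1.14 ± 0.20, adjusted p = 2.09e-05).

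Of the 15 Cdh genes outside the 8, 11 passed the filter, of which 3 rose and 5 fell (median -1.78). Over all tested genes 27.9% rose and 22.5% fell in this comparison, with a median of 0.22. Cdh10 went from 29.1 ± 10.9 CPM in MEFs to 0.0920 ± 0.116 (-8.25 ± 0.70, adjusted p = 2.78e-10), and Cdh18 from 6.04 ± 1.59 to 0.125 ± 0.0792 (-5.54 ± 0.82, adjusted p = 2.37e-06). The sizes of both falls are uncertain, because 3 reads correspond to 0.166 to 0.180 CPM in iPS-stage SSEA1pos libraries. In these Cdh10 was at 0 to 0.223 CPM and Cdh18 at 0.0531 to 0.210. Cdh20 was at 0 in all MEF libraries and at 0.900 ± 0.247 CPM in iPS-stage SSEA1pos cells, at least 2.68-fold higher when set against 3 reads in the shallowest MEF library (adjusted p = 0.000257). Of 8 genes known as repressors of Cdh1, 7 passed the filter, of which 0 rose and 6 fell (median -4.62), beside the same shares of all tested genes. The changes were -7.66 ± 0.56 for Snai2 (adjusted p = 3.38e-11), -6.50 ± 0.67 for Zeb2 (adjusted p = 8.3e-09) and -8.79 ± 0.97 for Twist2 (adjusted p = 2.4e-08). The size for Twist2 is uncertain, as it was at 0.0557 to 0.159 CPM in iPS-stage SSEA1pos libraries, below 3 reads. The 1 that did not pass the test was Tcf3 (-0.22 ± 0.47, adjusted p = 0.701). At day 3, when Cdh1 stood at 14.0 ± 3.83 CPM in SSEA1pos and 4.72 ± 0.77 in SSEA1neg cells, Snai2 had gone from 113 ± 28.4 CPM in MEFs to 5.69 ± 0.53 and 27.8 ± 4.90. Zeb1 was listed at 0 in all 33 libraries and was not tested. Of 7 genes that cut or turn over cadherins, 1 rose and 4 fell (median -1.65), again beside 27.9% and 22.5% of all tested genes. Among them were Ncstn, a subunit of gamma-secretase (-1.87 ± 0.14, adjusted p = 2.79e-11), Furin, a proprotein convertase (-2.44 ± 0.30, adjusted p = 1.11e-07), and Adam10, the sheddase of E- and N-cadherin (-1.65 ± 0.22, adjusted p = 3.29e-07).

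**Figure D5:**
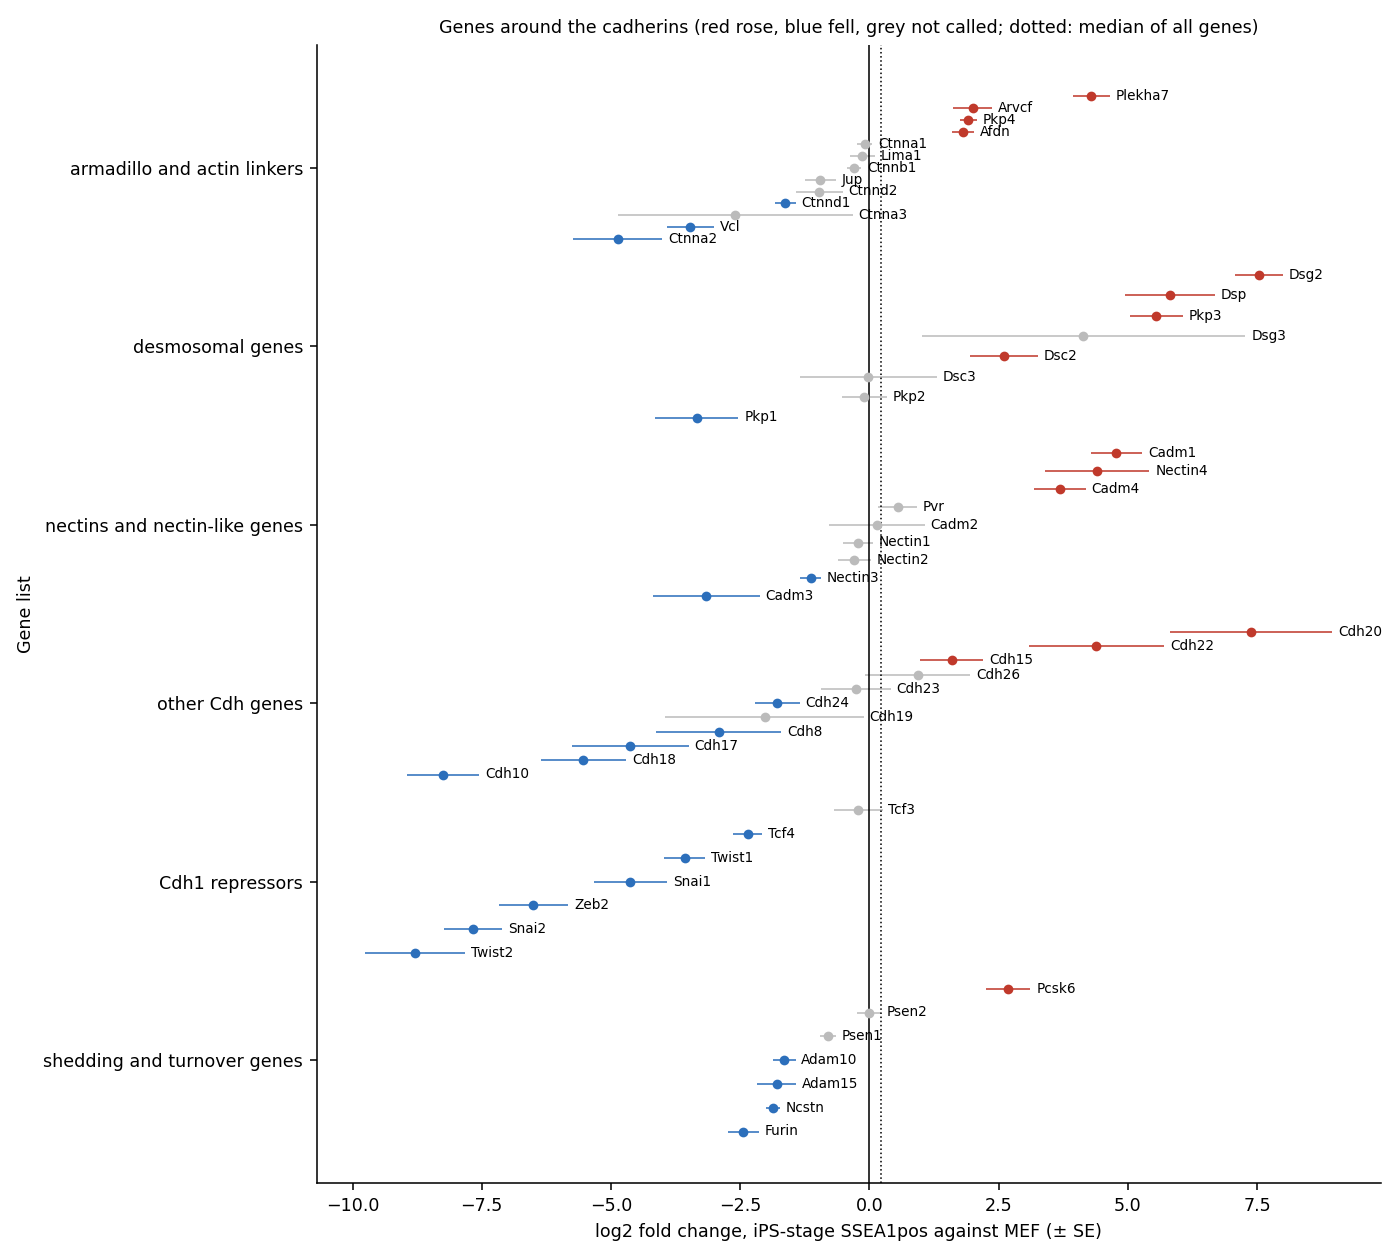
log2 fold change (points) ± standard error (bars) in iPS-stage SSEA1pos cells against MEFs for each tested gene of 6 lists around the cadherins (red, rose; blue, fell; grey, not called; dotted line, median of all tested genes, 0.22). Ctnnb1 and Ctnna1 lie near 0, the 4 called rises among desmosomal genes run up to 7.53 for Dsg2, and 6 of 7 tested repressors of Cdh1 lie far to the left; the fitted positions of Cdh20 and Dsg3, which were at 0 in MEFs, and of Ctnna3, at 0 in iPS-stage SSEA1pos cells, are no measured folds.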

How the data were processed

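The authors deposited 1 table of raw read counts per gene for each of the 33 libraries. Per the labels' protocols, poly-A RNA (RNeasy Micro) went into strand-marking libraries (NEBNext Ultra Directional). Per the submitters' processing notes, which give neither role nor order, HTSeq 0.6.0, STAR 2.3.0 and Picard 1.100 were used with the mm9 build. Which annotation release was counted is not stated there or in the labels. The names of the count tables speak of unstranded counting, under which reads of a gene and of an antisense partner cannot be told apart. No annotated gene overlapping one of the 8 shared an exon with it. Lines that name no gene (22.4 to 39.6% of each table's total) were left out.

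From the counts, edgeR 4.0.16 in R 4.3.3 was run on all 33 libraries with TMM scaling, its default low-count filter (17326 genes kept), robust quasi-likelihood fits with 22 residual degrees of freedom and Benjamini-Hochberg adjustment over all tested genes. Exon lengths per gene came from the GENCODE M21 annotation, whose build differs from that of the counts, so no coordinates are given. The Cdh1 to Cdh2 ratio was compared by two-sided exact permutation tests. The code was tested on simulated counts. Intervals and floors cover counting error only.

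DESeq2 1.42.0 (on all genes with a read), other scaling factors, no filter, a replicate block, fits of the compared groups alone and fits without each library were run as alternatives. The replicate block was fitted over all 33 libraries, also those of comparisons in which equal numbers did not pair. Its p-values are thus not those of paired tests within a comparison. Equal replicate numbers were taken to pair the libraries where all 3 correlations of their deviations from the group means exceeded 0.1. This held for SSEA1pos cells against MEFs at days 3, 6 and 12 (0.113 to 0.231), for the sort at days 3 to 12 (0.176 to 0.555), and for all steps except the last SSEA1pos step (0.103 to 0.796).

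All 8 genes are described. Of each list, up to 3 genes with the smallest adjusted p in iPS-stage SSEA1pos cells against MEFs are named, and for each of the 8 genes the 3 genes with the highest correlation, leaving out predicted genes and RIKEN clones. One gene that this rule names is not reported here. Genes and lists were chosen with earlier results of these data known.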

Additional observations from a re-analysis of the deposited data

Results flagged for a closer look

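The difference between SSEA1pos and SSEA1neg cells changed between stages, by a test of that change, in 4 of the 8 genes (with a replicate block also in Cdh4 and Cdh6 from day 3 to day 12). For Cdh3 it moved by 4.692 from day 3 to day 12, from lower to higher in SSEA1pos cells. For Cdh5 the same change was -3.745, for Cdh11 -3.211 and for Cdh13 -2.692. From day 12 to the iPS stage it changed by a further -3.445 in Cdh13. The calls for Cdh5, and for Cdh13 at the iPS stage, were each lost without certain single libraries, named with their p-values above, and that for Cdh13 also with the compared groups alone. In the day 12 SSEA1pos group, replicate 1, with the low basal epithelial sum, was the highest of the 3 in Cdh2 and Cdh4 and the lowest in Cdh13.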

How the results depend on the processing

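Each of the 84 called pairs of gene and comparison was followed through the alternatives. Of the fits without 1 library, only those that left out a library of the compared groups were used for this. Among these alternatives 0 pairs reversed and 64 stayed called in all. Leaving out a library of another group can also end calls, as those between SSEA1pos stages numbered 4 without MEF replicate 1. DESeq2, both other scalings and the replicate block lost 0 calls, no filter lost 5 of 84, the compared groups alone 7 of 83, and fits without 1 library 53 of 534. Calls between neighbouring SSEA1pos stages numbered 6 as reported, 10 with DESeq2 and 3 with the compared groups alone. Those between neighbouring SSEA1neg stages numbered 3, and 1 to 4 without single libraries (1 without day 3 SSEA1neg replicate 1). With the replicate block, the changes of the sort difference numbered 8 in place of 5; the block ended no call, and the calls it added where numbers pair are given above. It also called the change of Cdh6 from day 12 to the iPS stage (-3.33, adjusted p = 0.0348), where the sort of the iPS stage does not pair. Without single libraries the counts were 25 to 29 (28 as reported) for SSEA1pos cells against MEFs, 21 to 26 (23) for SSEA1neg cells against MEFs, 18 to 22 (19) between the fractions, 4 to 7 between SSEA1pos stages, 4 to 6 for the changes of the sort difference and 34 to 38 (36) for the lists. The Cdh1 to Cdh2 ratio against MEFs rests on 63 Cdh1 reads in MEFs: at the iPS stage in SSEA1pos cells the difference was 12.8 to 14.77 without single libraries. Cdh4 and Cdh5 in MEFs, with 32 and 10 reads, are limited by depth in the same way.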
